A study of Mus musculus with 40 samples.

Results

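The clustered protocadherins were examined in cultured mouse oligodendrocyte precursor cells (OPCs), with and without the histone mutation H3.3 K27M. They were taken as the protein-coding genes of chromosome 18 whose symbol begins with *Pcdha*, *Pcdhb* or *Pcdhg* in the GENCODE M21 annotation of mm10. This gave 57 of 21951 protein-coding genes, namely 14 alpha, 22 beta and 21 gamma genes. They carry 56 distinct symbols, because 2 neighbouring alpha genes are both annotated as *Pcdha11* and are told apart here by their identifiers. All 57 lie on the plus strand between chr18:36930184-37841873, a span of 912 kb. The promoters of *Pcdhga4* and *Pcdhgb2* overlap, so a peak can count for both. *Pcdhgb8* is annotated as a polymorphic pseudogene and was therefore not a member.

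Clustered protocadherins are cadherin-like adhesion proteins of the cell surface that bind their own kind on neighbouring cells, and neurons use their combinations to tell their own processes from those of other cells. Each alpha and gamma gene has its own promoter and a variable first exon, which is spliced to constant exons shared by the cluster, whereas each beta gene is a single coding exon. In neurons the variable promoters are chosen at random, cell by cell, with CTCF and cohesin looping the chosen promoter to distant enhancers. The C-type genes *Pcdhac1*, *Pcdhac2*, *Pcdhgc3*, *Pcdhgc4* and *Pcdhgc5*, at the ends of the alpha and gamma clusters, are expressed more uniformly. H3K4me3 marks promoters that are active or poised, and H3K27me3 is laid down by Polycomb repressive complex 2 (PRC2), which K27M inhibits.

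OPCs, the proliferating cells from which myelinating oligodendrocytes arise, came from litters of postnatal days 5 to 7 and from both sexes. The sample records spell these litters AMGFAP-Cre;K27M, and the study names the Cre line hGFAP-Cre. K27M mice carry the mutation in H3.3 through recombination driven by hGFAP-Cre, which acts in neural stem and progenitor cells, and controls were littermates whose exact alleles the labels do not give. Tissue was pooled by region and genotype, depleted of endothelial cells and microglia on BSL1, immunopanned with anti-PDGFRa, and grown and passaged in proliferation medium without differentiation. ChIP-seq of both marks was done in brainstem cultures 59 and 61 and in telencephalon cultures 59, 60 and 61, where the label cortex stands for dorsal telencephalon. Each culture number has a control and a K27M culture, which gives 20 libraries, 10 per mark, in 5 matched pairs per mark. Replicates are separate cultures of pooled tissue, so p-values measure the spread between cultures. Numbers 59 and 61 occur in both regions, and the labels do not say whether same-numbered cultures came from the same litters. The tests of K27M against control treat the 5 pairs as independent, which would not hold if they did.

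The peak lists were the unit of measurement. A promoter was the stretch from 2000 bp upstream to 1000 bp downstream of a transcript start, and it was called marked when a peak covered at least 1 bp of it. H3K4me3 lists held 20961 to 31200 peaks. H3K27me3 lists held 12715 to 64808 peaks in controls and 4739 to 15753 in K27M, and the K27M lists differed from their matched controls by -87.2% to -50.3% in length. The peak lists hold no read depth, and the number of peaks limits what a missing peak can mean, since signal under the caller's threshold leaves no trace. A peak in these bulk cultures cannot tell a mark on few cells or alleles from a weaker mark on many. All 7 OPC markers (*Pdgfra*, *Cspg4*, *Olig1*, *Olig2*, *Sox10*, *Ptprz1* and *Gpr17*) had H3K4me3 and none had H3K27me3 in any of the 10 libraries of each mark. Of 4 astrocyte markers 0, of 4 microglia markers 0, of 4 endothelial markers 1 and of 4 neuron markers 3 had H3K4me3 in all 10 libraries. Those without it in any library numbered 0, 3, 2 and 1, and the rest had it in part of the libraries. Among these, *Gjb6* had it in 4 controls and 5 K27M libraries, *P2ry12* in 3 and 5, *Gfap* in 3 and 3, *Aldh1l1* in 2 and 4 and *Cldn5* in 3 and 2.

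H3K4me3 was found at part of the protocadherin promoters in every culture, and which ones carried it differed from culture to culture. In the brainstem, 31 of 57 promoters were marked in control 59 and 44 in K27M 59, against 31 in control 61 and 24 in K27M 61. In the telencephalon the numbers were 16 in control 59 and 30 in K27M 59, 33 in control 60 and 45 in K27M 60, and 33 in control 61 and 49 in K27M 61. The K27M library had more marked members in 4 of the 5 pairs, and brainstem culture 61 went the other way. The ranges of control and K27M libraries overlapped in both regions. Over all protein-coding genes, the share marked stayed between 58.8% and 65.1% in the same 10 libraries.

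**Figure D1:**
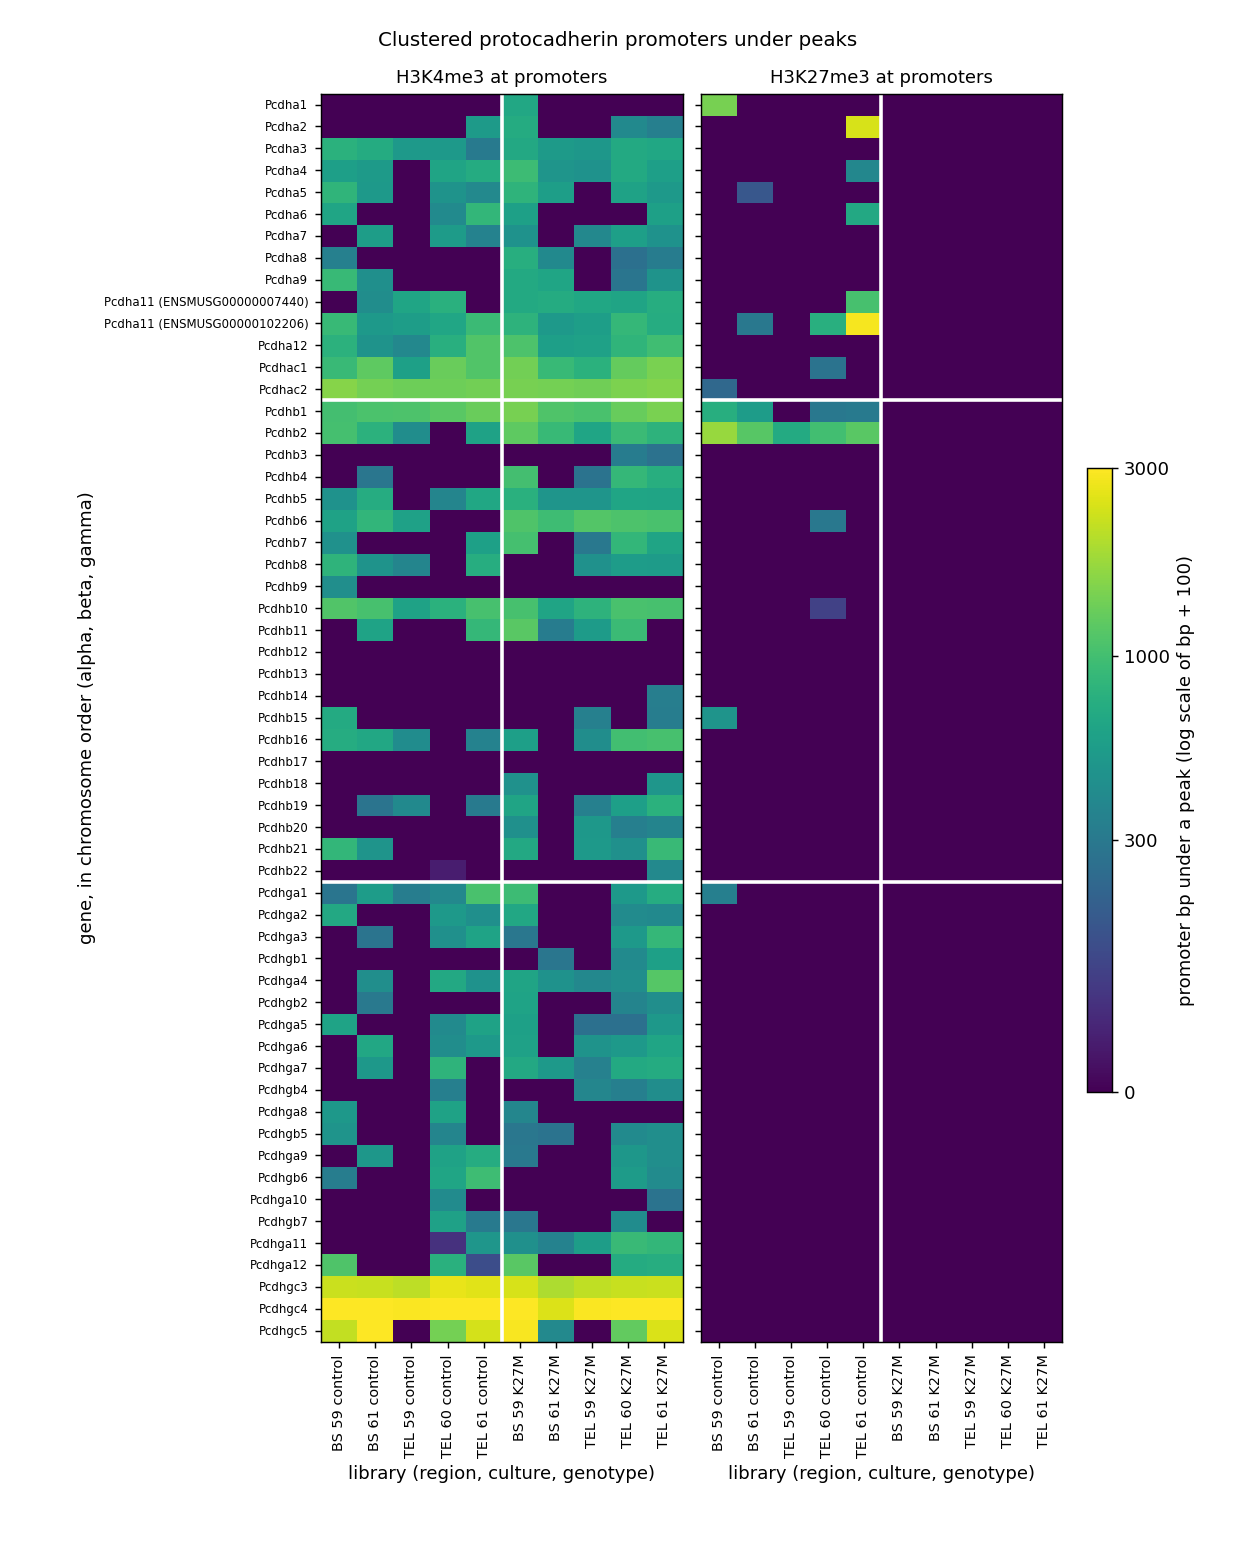
Base pairs of each member's promoter under an H3K4me3 peak (left) and an H3K27me3 peak (right), with 1 row per gene in chromosome order and 1 column per library. Colour is on a log scale of bp + 100, BS and TEL stand for brainstem and telencephalon, and white lines part the genotypes and clusters. *Pcdhgc3* and *Pcdhgc4* are bright in every H3K4me3 column, most other members have dark columns (0 bp) among lit ones, and the K27M columns of H3K27me3 hold no peak.

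Most members were marked in some libraries and not in others. An H3K4me3 peak was present in 1 to 9 of the 10 libraries at 45 of the 57 members (78.9%), against 8.51% of all protein-coding genes. Only 9 members (15.8%) were marked in all 10 libraries, against 58.0% of protein-coding genes. These were *Pcdha3*, *Pcdha11* (ENSMUSG00000102206), *Pcdha12*, *Pcdhac1*, *Pcdhac2*, *Pcdhb1*, *Pcdhb10*, *Pcdhgc3* and *Pcdhgc4*. No library had a peak at *Pcdhb12*, *Pcdhb13* or *Pcdhb17*, which makes 3 members (5.26%) against 33.5% of protein-coding genes. Intermediate presence covered 9 of 14 alpha, 17 of 22 beta and 19 of 21 gamma genes, and the median member was marked in 6 libraries.

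**Figure D2:**
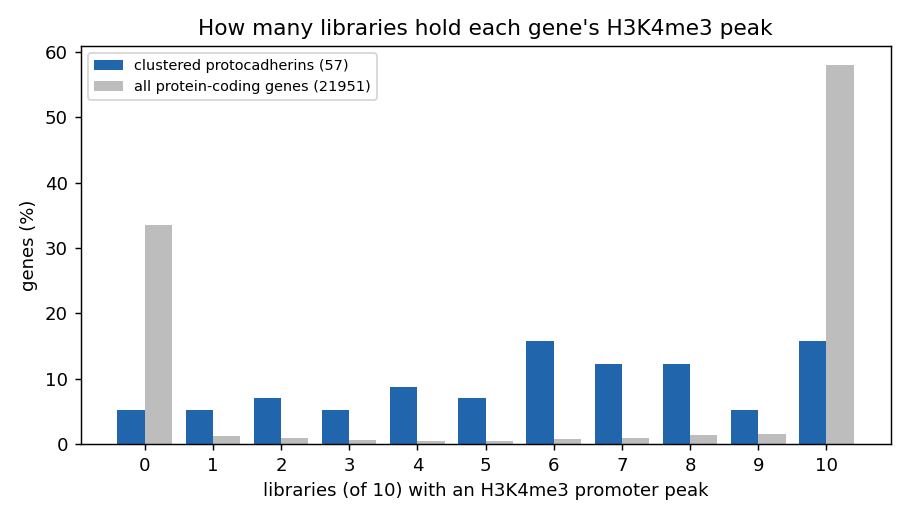
Share of genes (y axis, %) by the number of H3K4me3 libraries out of 10 that hold a promoter peak (x axis), for the 57 clustered protocadherins and all 21951 protein-coding genes. Protein-coding genes pile up at 0 (33.5%) and 10 (58.0%), whereas 78.9% of the protocadherins lie between.

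On average, matched cultures shared about as many of their marked members as other combinations of libraries did. Of the members marked in either library of a matched pair, 56.3% on average were marked in both (range 48.4% to 60.8%, n = 5 pairs). The mean was 54.8% for libraries of the same region and genotype (range 28.9% to 84.3%, n = 8). It was 53.9% for all other combinations (range 32.7% to 81.6%, n = 32), some of which share a genotype or a culture number. The same measure over protein-coding genes was 96.6%, 94.8% and 95.1%. The combinations share libraries and are given as a description. The shared percent is also limited by list size, since libraries had 16 to 49 marked members. All 16 members marked in telencephalon control 59 were marked in telencephalon K27M 61, yet the shared percent of these 2 libraries was 32.7%.

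Peaks at members were weak relative to those at other marked promoters of the same library. The median fold enrichment over input at marked members was 3.43 to 7.27, and that of all marked protein-coding genes 4.12 to 63.9. Among the marked protein-coding genes of its library, the median member lay at percentile 2.75 to 10.6 of fold enrichment in 9 of the 10 libraries. It lay at percentile 30.2 in telencephalon control 59, the control with the fewest marked members. Member peaks were also short, with medians of 520 to 799 bp against 1540 to 2470 bp. With -log10 q of at least 3, 45 members were still marked in 1 to 9 of the 10 libraries. The part of peak strength in the differences between cultures was not tested. Summits sat just inside the genes, at a median of 178.5 to 276 bp downstream of the start, with 80.0% to 93.3% of them within 500 bp of it.

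**Figure D3:**
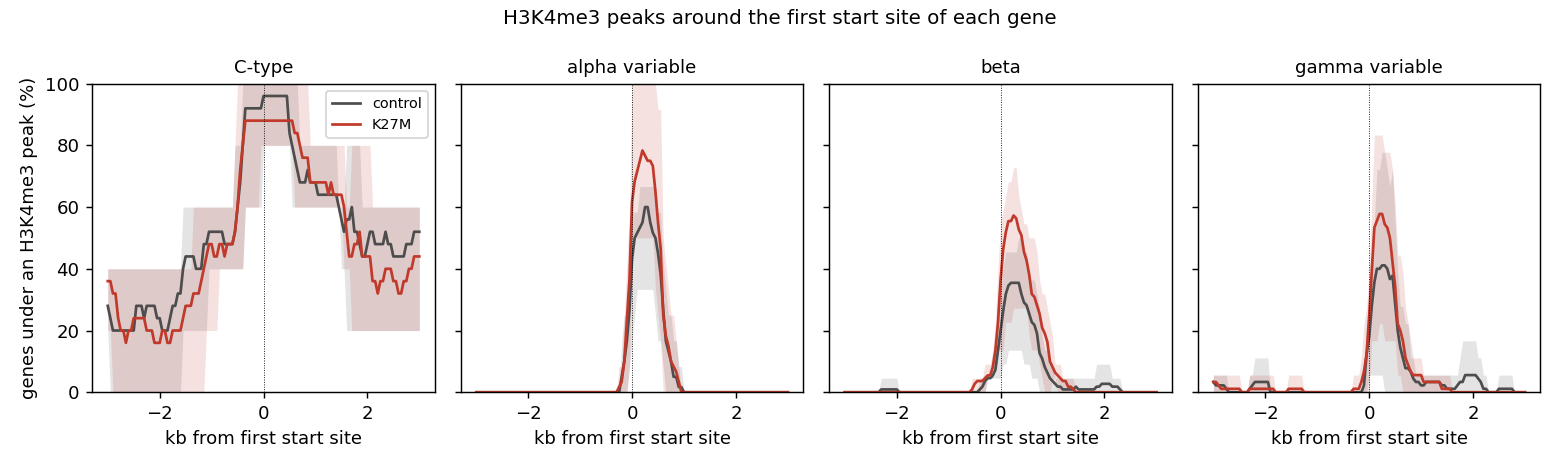
Mean percent of members under an H3K4me3 peak (y axis) by distance from the gene's first transcript start (x axis, kb) for C-type, alpha variable, beta and gamma variable genes, as means (lines) and ranges (bands) over 5 control and 5 K27M libraries. The C-type curves are highest at the start and broad on both sides, and the curves of the other groups are narrow and lie just downstream of the start.

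As a group, the C-type promoters carried the most extensive H3K4me3. Not each of them did, since *Pcdhac1* averaged 1037 bp in controls and the beta gene *Pcdhb1* 1129 bp. Neighbouring C-type promoters can also lie under the same peak. In brainstem control 61 a single peak of 15.4 kb reached *Pcdhgc3*, *Pcdhgc4* and *Pcdhgc5*. On average 4.8 of 5 were marked in controls and 4.8 of 5 in K27M. *Pcdhgc4*, which is required for the survival of many neurons, had 3000, 3000, 2946, 3000 and 3000 bp of its promoter under a peak in controls (brainstem 59 and 61, telencephalon 59, 60 and 61) and 3000, 2501, 2939, 3000 and 3000 bp in K27M. *Pcdhgc3* had 2110 to 2648 bp in controls and 1939 to 2412 bp in K27M. The 2 genotypes overlapped at both genes. *Pcdhac2*, the last gene of the alpha cluster, had 1361 to 1570 bp in controls and 1365 to 1536 bp in K27M. *Pcdhac1* had 607 to 1311 bp and 795 to 1445 bp. *Pcdhgc5* was the least regular of the group, with 2169, 3000, 0, 1403 and 2373 bp in controls and 2917, 405, 0, 1254 and 2449 bp in K27M. Where several starts are annotated for a gene, the window with the most covered base pairs is given.

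Beta promoters made up 7 of 14, 10 of 12 and 8 of 16 of the net additional H3K4me3-marked members in telencephalon cultures 59, 60 and 61. Beta genes were also many of the members that could gain a peak. The controls left 41, 24 and 24 of the 57 members unmarked, and 7, 4 and 9 of the 22 beta genes were marked there. The beta share of the net addition was not tested against this. Beta genes marked in the brainstem numbered 11 in control 59 and 13 in K27M 59, and 11 in control 61 and 6 in K27M 61. In the telencephalon they numbered 7, 4 and 9 in controls 59, 60 and 61, and 14, 14 and 17 in the matched K27M cultures, so the lowest K27M value lay above the highest control value there. Over all protein-coding genes, 58.8%, 64.8% and 65.1% were marked in these controls and 60.4%, 63.5% and 63.9% in these K27M cultures. Those ranges overlapped. The alpha variable genes numbered 8, 8, 4, 8 and 8 of 12 in controls and 12, 8, 6, 10 and 11 in K27M. Gamma variable genes varied most between cultures, with 7, 7, 1, 16 and 11 of 18 in controls and 14, 5, 6, 16 and 16 in K27M.

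The number of marked members was 9.6 ± 9.40 (SD, n = 5 pairs) higher in K27M than in the matched control. The difference was 14 ± 2 (n = 3) in the telencephalon and 3 ± 14.1 (n = 2) in the brainstem, where it was 13 in culture 59 and -7 in culture 61. Without telencephalon pairs 60 and 61, the mean difference was 6.67. The study's library list gives these 2 H3K4me3 controls a higher share of duplicate reads than the other libraries. They also had the highest median fold enrichment over all marked protein-coding genes, 63.9 and 51.2 against 32.8 and 33.1 in their K27M partners. The part of these features in the difference was not tested. In the brainstem the differences had the same sign as the differences in list length, which were 16.4% in culture 59 and -14.8% in culture 61. In telencephalon cultures 59, 60 and 61 the K27M lists differed from their controls by -2.61%, -0.487% and -1.20% in length. By the study's library list, the K27M library had more H3K4me3 reads than its control in brainstem 59 and fewer in brainstem 61, the same signs as the members' differences, and fewer in each telencephalon pair, by little in culture 61. These totals include duplicate reads. With the listed duplicates left out, the K27M library had more reads than its control in telencephalon 60 and 61. The part of depth in the difference was not tested. With the same number of peaks taken from every H3K4me3 library, the mean difference over the 5 pairs was 6.2. When both lists of a pair were trimmed to the length of the shorter, keeping the strongest peaks by -log10 p, it was 10.8 ± 5.97, and brainstem culture 61 then had 23 marked members in the control and 24 in K27M.

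**Figure D4:**
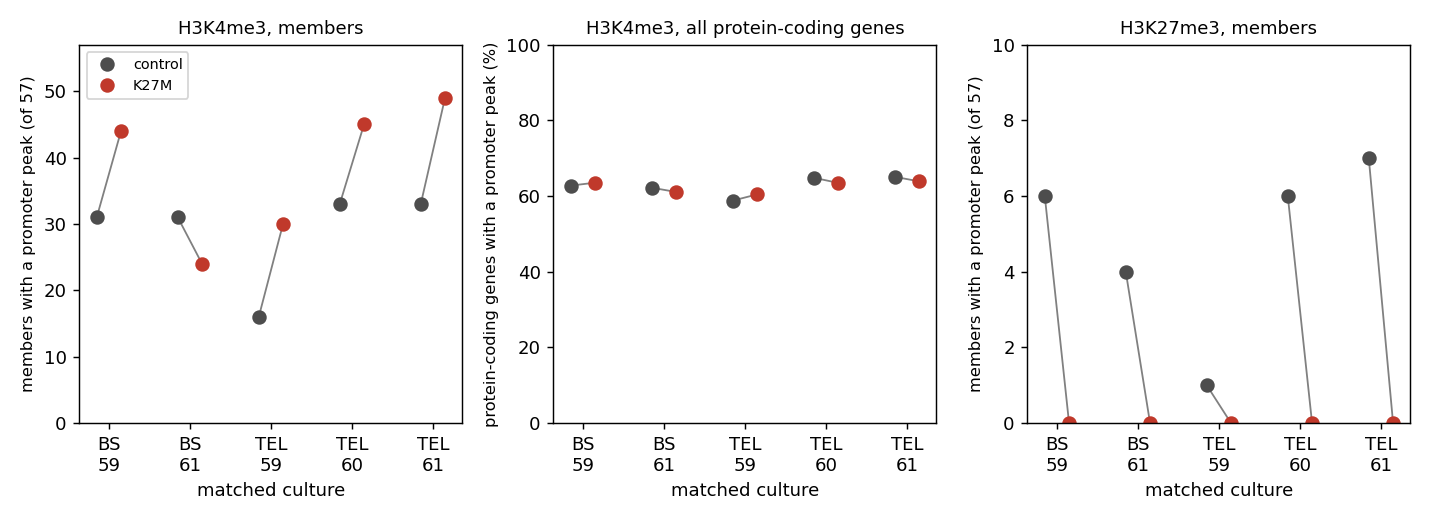
Number of the 57 members with a promoter peak (y axis) in the control and K27M library of each matched pair, joined by a line, for H3K4me3 (left) and H3K27me3 (right), with the percent of all protein-coding genes that had an H3K4me3 peak in the middle. Members' H3K4me3 counts are higher in K27M in 4 of 5 pairs, and H3K27me3 counts reach 0 in all 5 K27M libraries.

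Individual members were counted as gaining a peak where only the K27M library of a pair had it, and as losing it where only the control did. In the telencephalon, 15, 16 and 18 members gained H3K4me3 and 1, 4 and 2 lost it in cultures 59, 60 and 61. In the brainstem, 17 gained and 4 lost it in culture 59, and 4 gained and 11 lost it in culture 61. Of the members unmarked in the control, 36.6%, 66.7% and 75.0% gained a peak in the telencephalon and 65.4% and 15.4% in the brainstem, against 1.10% to 4.49% of unmarked protein-coding genes. Over the 5 pairs, 29 members were marked in more K27M than control libraries, 6 in fewer and 22 in equally many. Of protein-coding genes, 2.83% were marked in more and 3.59% in fewer. Only genes marked in 1 to 9 of the 10 libraries can gain or lose a peak. These were 45 members and 1868 protein-coding genes, so shares over all genes include many that cannot change. Among the 1868, 621 were marked in more K27M libraries and 788 in fewer.

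Recurrent gains were found in all 3 clusters. A peak was gained in at least 3 of 5 pairs and lost in none at 5 members, *Pcdha8*, *Pcdhb20*, *Pcdhgb1*, *Pcdhga7* and *Pcdhga11* (8.77%), against 0.173% of protein-coding genes. The opposite pattern was found at 0 members, against 0.159%. In the telencephalon alone, 13 members gained H3K4me3 in at least 2 of 3 pairs and lost it in none (22.8%), against 0.282% of protein-coding genes. They were *Pcdha8*, *Pcdha9*, *Pcdhb3*, *Pcdhb4*, *Pcdhb6*, *Pcdhb7*, *Pcdhb15*, *Pcdhb20*, *Pcdhb21*, *Pcdhgb1*, *Pcdhgb2*, *Pcdhga7* and *Pcdhgb4*. The reverse was found at 0 members, against 0.970%. Only genes marked in 1 to 9 of the 10 libraries can show these patterns, namely 45 members and 1868 protein-coding genes. The gain over 5 pairs was found at 5 of these members and 38 of these protein-coding genes. The telencephalon gain was found at 13 and 62. When the 2 remaining pairs were both required, 9 members gained a peak without culture 59, 6 without culture 60 and 5 without culture 61. With equal numbers of peaks, 11 members gained and 2 lost it.

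*Pcdhb4* (chr18:37307455-37311172) and *Pcdhb20* (chr18:37504264-37507822) were the members that gained a peak in at least 4 of 5 pairs. *Pcdhb20* had no H3K4me3 peak in any of the 5 controls, and 458, 0, 527, 341 and 371 bp of its promoter were covered in K27M (brainstem 59 and 61, telencephalon 59, 60 and 61). *Pcdhb4* had 0, 286, 0, 0 and 0 bp in controls and 1011, 0, 270, 880 and 761 bp in K27M. At *Pcdhb4*, brainstem 61 lost the peak. The gained peaks were weak, with fold enrichments of 2.85 to 4.04 at *Pcdhb20* and 3.05 to 4.93 at *Pcdhb4*. *Pcdhb22*, the last beta gene, had a peak in 2 libraries, 32 bp in telencephalon control 60 and 406 bp in telencephalon K27M 61. *Pcdha1*, the first alpha gene, was marked only in brainstem K27M 59, with 687 bp. *Pcdhga1*, the first gamma gene, was marked in 5 controls (282 to 1052 bp) and 3 K27M libraries (537 to 957 bp).

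Coverage of the whole span gave the comparison that was tested. H3K4me3 peaks covered 5.48%, 5.68%, 2.88%, 5.40% and 5.99% of it in controls and 7.87%, 3.45%, 3.98%, 6.56% and 7.33% in K27M. Control and K27M values overlapped. The mean difference was 0.753 ± 1.75 percentage points (n = 5), which was smaller than its spread between pairs (exact sign-flip permutation test, two-sided, p = 0.3125, adjusted over 6 tests 0.625). The regions differed in how uniform the pairs were, with 1.20 ± 0.124 points in the telencephalon (n = 3) and 0.0784 ± 3.27 in the brainstem (n = 2). Relative to the covered length of the whole genome in the same libraries, the log2 ratio of K27M to control was 0.10 ± 0.29 higher in the span (exact p = 0.5625, adjusted 0.84375). It was 0.24 ± 0.06 in the telencephalon and -0.12 ± 0.43 in the brainstem. A test of 5 pairs cannot give p under 0.0625.

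Not all H3K4me3 of the span sat at promoters. Outside the members' promoters, 12 intervals were under a peak in at least 9 of the 10 libraries, and 8 of them lay in the gamma cluster. Some were the outer parts of promoter peaks. An interval of 693 bp adjoined the *Pcdhac2* promoter and another of 3555 bp the *Pcdhgc3* promoter, under peaks that also covered these promoters. Of the 12, an interval of 1385 bp lay between the alpha and beta clusters, at chr18:37216974-37218358. It was under a peak in all 10 libraries and 47.3 kb upstream of *Pcdhb1*. In controls, 58.9% ± 6.88 of the covered base pairs fell in the gamma cluster and 22.6% ± 2.17 in the alpha cluster (n = 5).

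H3K27me3 was sparse at protocadherin promoters in controls and was called at none in K27M. The controls had 6, 4, 1, 6 and 7 marked members (brainstem 59 and 61, telencephalon 59, 60 and 61), and each matched K27M library had 0. The difference was -4.8 ± 2.39 members (n = 5 pairs), -5 ± 1.41 in the brainstem and -4.67 ± 3.21 in the telencephalon. Across controls, 15 members (26.3%) had a peak in at least 1 library, against 36.4% of protein-coding genes. In every control a peak was found at 1 member, *Pcdhb2* (1.75%), against 9.09%. In at least 1 K27M library a peak was found at 0 members, against 14.2%. All 15 members with a control peak thus had none in K27M, as did 61.3% of the protein-coding genes with a control peak. Among genes marked in at least 4 controls, both members and 23.3% of protein-coding genes had no K27M peak.

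These control peaks were weak beside those of other marked promoters, at a median percentile of 14.5 to 42.0 of fold enrichment among marked protein-coding genes. That rank leaves out peaks away from promoters. Among all peaks of its list, the *Pcdhb2* peak lay at percentiles 36.7 (telencephalon control 59) to 90.4 (brainstem control 59). With the 4739 strongest peaks of every library, the length of the shortest list, 0 members had H3K27me3 in any control. With fold enrichment of at least 3 there was 1 such member, and with -log10 q of at least 3 there were 2. The members' control peaks were thus not among the 4739 strongest of their lists, ranked by -log10 p. The other 4 K27M lists, with 7731 to 15753 peaks, also held none at members. When both lists of a pair were trimmed to the length of the shorter, 1 member was marked in brainstem controls 59 and 61 each, 0 in the 3 telencephalon controls and 0 in K27M, a difference of -0.4 ± 0.548 (n = 5).

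*Pcdhb2* and *Pcdhb1*, the first beta genes, were marked by both modifications in controls. *Pcdhb1* lies at chr18:37264938-37267525 and *Pcdhb2* at chr18:37294812-37297624. H3K27me3 covered 1733, 1162, 716, 994 and 1187 bp of the *Pcdhb2* promoter in controls and 0 bp in all 5 K27M libraries, at control fold enrichments of 2.39 to 3.20. At this gene 1 of 5 controls kept the peak with -log10 q of at least 3 and 2 with fold enrichment of at least 3. H3K4me3 covered 1020, 804, 442, 0 and 628 bp there in controls and 1217, 916, 650, 939 and 824 bp in K27M. More of the *Pcdhb2* promoter was thus under an H3K4me3 peak in K27M in each pair, and none of it was under an H3K27me3 peak in K27M. H3K27me3 covered 759, 565, 0, 298 and 314 bp of *Pcdhb1* in controls and 0 bp in K27M, with H3K4me3 over 1005 to 1311 bp in controls and 1053 to 1447 bp in K27M. *Pcdha11* (ENSMUSG00000102206) had the most H3K27me3 of the alpha genes, with 0, 297, 0, 769 and 2851 bp in controls. In *Pcdha1* it covered 1434 bp in brainstem control 59 alone, and in *Pcdhga1* 339 bp in the same library. *Pcdhga1* was the only gamma gene with H3K27me3.

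Both marks lay at the same promoter in 5, 4, 1, 4 and 6 members in controls and 0 in each K27M library, a difference of -4 ± 1.87 (n = 5). With at least 500 bp of each mark in the promoter it was -1.8. The peaks of the 2 marks need not overlap each other to count. At *Pcdhb2* the H3K27me3 peak ended upstream of the H3K4me3 peak in each control that had both. Over protein-coding genes the controls had both marks at 4.87% to 20.8% of promoters and K27M libraries at 3.71% to 9.69%.

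**Figure D5:**
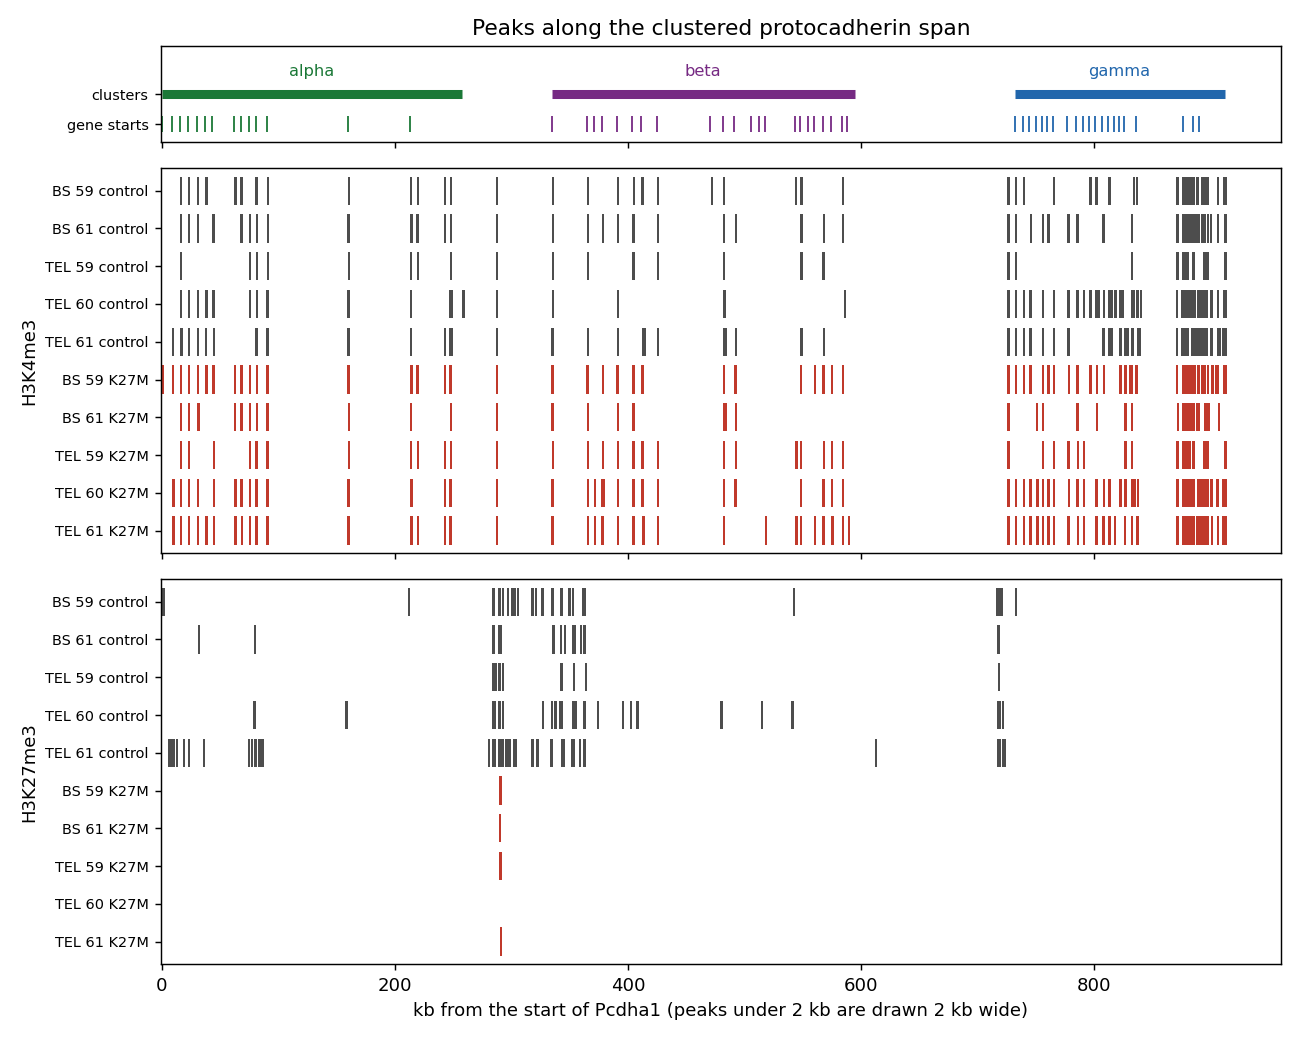
Peaks of each library along the clustered protocadherin span (x axis, kb from the start of *Pcdha1*), with the clusters and gene starts above, H3K4me3 in the middle and H3K27me3 below, controls in grey, K27M in red and short peaks widened to be visible. Control H3K27me3 peaks crowd between the alpha and beta clusters, and the single K27M peak of 4 libraries lies there too.

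H3K27me3 peaks lay within and outside the members' promoters. Of the 66963 bp of the span under a peak in at least 1 control, 15049 bp (22.5%) fell in a member's promoter, and these promoters make up 19.1% of the span. The span had 32279, 13984, 7091, 23290 and 43020 bp under H3K27me3 peaks in controls and 377, 652, 827, 0 and 473 bp in K27M. This was 3.54%, 1.53%, 0.778%, 2.55% and 4.72% of the span in controls and 0.0414%, 0.0715%, 0.0907%, 0 and 0.0519% in K27M, and the 2 groups did not overlap. The mean difference was -2.57 ± 1.58 percentage points (n = 5, lower in 5 of 5 pairs, exact sign-flip permutation test, two-sided, p = 0.0625, the smallest that 5 pairs allow, adjusted 0.1875). It was -2.48 ± 1.44 in the brainstem and -2.64 ± 1.99 in the telencephalon. The difference was -0.448 points with equal numbers of peaks and -0.924 with the lists of each pair trimmed to the shorter. It was -0.619 with fold enrichment of at least 3 and -0.917 with -log10 q of at least 3. In each setting the K27M library was lower in 5 of 5 pairs. The study's library list gives K27M fewer H3K27me3 reads than its control in brainstem 59 and telencephalon 59 and 61. It gives K27M more in brainstem 61 and telencephalon 60. With the listed duplicates left out, K27M had fewer in brainstem 61 as well. The part of depth in the H3K27me3 differences was not tested.

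The span kept a smaller share of the length covered by H3K27me3 peaks than the genome did in each of the 5 pairs. The genome was not matched to the span for peak strength or length. Control peaks of the span had median lengths of 568.5 to 803.5 bp and median fold enrichments of 2.34 to 2.89. The part of these features in the difference was not tested. Of the control's covered length, 3.72% ± 4.77 was also covered in the matched K27M library within the span, against 31.1% ± 14.0 genome-wide (n = 5). The difference was -27.4 ± 11.5 percentage points, lower in 5 of 5 pairs (exact p = 0.0625, a measure added after the data were seen). As a log2 ratio of covered length with 1000 bp added, the span stood at -2.29 ± 0.80 relative to the genome (lower in 5 of 5 pairs, exact p = 0.0625, adjusted 0.1875), with -2.43 ± 0.03 in the brainstem and -2.20 ± 1.12 in the telencephalon. This ratio depends on the amount added, since few base pairs remain in K27M, and it was 0.0040 with 10000 bp added and -3.88 with 100 bp. Restricted to the members' promoters it was -0.48.

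The interval between the alpha and beta clusters held the densest H3K27me3. Peaks covered 11.95% ± 7.89 of its 77.3 kb in controls (n = 5), or 40.03% ± 13.2 of all H3K27me3 base pairs of the span. Coverage was 2.90% ± 1.32 in the beta cluster, 2.47% ± 1.77 between beta and gamma, 1.44% ± 2.06 in the alpha cluster and 0.0376% ± 0.0842 in the gamma cluster. Under a peak in all 5 controls were 7 segments with 4654 bp in all, and only 1 of them, next to *Pcdhb2*, overlapped a member's promoter.

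The longest of these segments, 2273 bp at chr18:37219077-37221349, was the site of the strongest H3K27me3 peak of the span in every control. The fold enrichment of that peak was 4.10 and 3.66 in brainstem controls 59 and 61 and 3.47, 3.69 and 3.95 in telencephalon controls 59, 60 and 61, at percentiles 89.2 to 96.0 of its list. It is intergenic with respect to the members, 44.7 kb upstream of *Pcdhb1*, poor in CpG (0.352 per 100 bp against 1.21 over the span) and at 32.2% GC, and no H3K4me3 library had a peak in it. The shared H3K4me3 interval of the same intergenic region ended 718 bp before it. In K27M, 4 of 5 libraries had a single H3K27me3 peak in the whole span, and each lay within this segment. Those peaks were 377 and 652 bp long in brainstem 59 and 61 and 827 and 473 bp in telencephalon 59 and 61, with fold enrichments of 2.57 to 3.73, and telencephalon K27M 60 had none. Together they spanned 1371 bp, all of it under a peak in every control.

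For the peaks as listed, coverage of the span in brainstem and telencephalon controls overlapped for both marks. H3K27me3 covered 0.146 ± 1.81 percentage points more in the telencephalon (exact permutation test over 10 splits, two-sided, p = 1, adjusted 1), and the H3K4me3 difference was -0.824 ± 1.35 (exact p = 0.8, adjusted 0.96). With 2 and 3 libraries this test cannot give p under 0.1. With fold enrichment of at least 3 the H3K27me3 difference turned to -0.667 ± 0.189 percentage points (exact permutation test, p = 0.1), the brainstem being higher. The number of members with H3K4me3 was 31 in both brainstem controls and 27.3 ± 9.81 in the telencephalon controls (n = 3), a difference of -3.67, and without telencephalon 59 it was 2.

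Consensus peaks gave each member a state in control cultures. They required support from at least 2 cultures, and the weakest peaks did not count. In the brainstem, 1 member was bivalent, that is with both marks in the same promoter (*Pcdhb2*), 17 had H3K4me3 only and 39 were unmarked. In the telencephalon, 0 were bivalent, 28 had H3K4me3 only and 29 were unmarked. Among protein-coding genes, 9.32% and 14.5% were bivalent and 52.0% and 49.5% had H3K4me3 only. The state was H3K4me3 only in both regions at 14 members, unmarked in both at 26 and different at 17. The telencephalon count rests on 3 cultures against 2, and with cultures 59 and 61 alone it was 13.

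CpG density gave only a partial order of the promoters. The median was 1.8 CpG per 100 bp over the 57 members, with 2.6 in C-type, 2.05 in gamma variable, 1.98 in alpha variable and 1.18 in beta promoters, against 2.4 over protein-coding genes. Protein-coding genes marked by H3K4me3 in all 10 libraries had a median of 3.33 and those marked in none 0.767, so the members lay between. Across the 57 members, CpG density and the number of H3K4me3 libraries had a Pearson r of 0.33 and a Spearman rho of 0.26. Without the C-type genes the values were 0.16 and 0.12 (n = 52). Genes are not independent replicates. The study removed reads of low mapping quality for its quantification, and whether this held for the peak calls at near-identical members is not given in the sources used here.

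Genes of related roles were read against all protein-coding genes, of which 58.0% had H3K4me3 in all 10 libraries and 36.4% had H3K27me3 in at least 1 control. Among 17 regulators of protocadherin choice and silencing, which include the insulator protein gene *Ctcf*, the cohesin genes *Rad21*, *Smc1a* and *Smc3* and the silencing factor gene *Smchd1*, 17 had H3K4me3 in all 10 libraries. H3K27me3 was found in at least 1 control at 6 of them, a share near that of all protein-coding genes, and in K27M at 2, *Smc1a* and *Wiz*. Of 11 cytoplasmic partners of the protocadherins 10 had H3K4me3 in all 10 libraries, as had 11 of 12 protocadherins outside the clusters and 15 of 19 classical cadherins. Among the non-clustered protocadherins, *Pcdh8* kept an H3K27me3 peak in all 10 libraries, with 663 to 3000 bp in controls and 734 to 1585 bp in K27M, while the 6 others with a control peak had none in K27M. Of 18 neighbouring protein-coding genes within 200 kb, 11 had H3K4me3 in all 10 libraries, again near the share of all protein-coding genes, and 3 had H3K27me3 in a control and 0 in K27M. Of these neighbours, *Gm42416*, *Gm37013* and *Gm37388* are gene models that lie inside the span and overlap members, so their values are not independent of the members' values.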

How the data were processed

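The authors trimmed single-end reads with Trim Galore 0.6.7, aligned them to mm10 with BWA 0.7.17-r1188 in the nf-core ChIP-seq pipeline and discarded reads in blacklisted regions. Peak calling was by MACS2 2.2.7.1, library by library with the library's input as background, in broad mode for H3K27me3 and narrow mode for H3K4me3, with duplicate reads kept. The study left out libraries with few peaks. The 20 input samples of the 40 in the series have no peak list among the files used here. The deposited lists give, per peak, a fold enrichment over input (a ratio), the −log10 of the p-value and q-value, a score and, for narrow peaks, the summit's offset. The score was not used. Spike-in reads did not enter the peak calls. No reads were counted, so values are positions and lengths, with no depth correction.

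Overlapping peaks of a library were merged before covered base pairs were summed. Python 3.11.15 was used, and numpy 2.4.6 as well as scipy 1.17.1. Promoters came from GENCODE M21 on the same assembly, while the study used a later release. Matched pairs of K27M and control cultures, which the study's methods describe as assayed together, were compared by exact sign-flip permutation tests over 32 arrangements, and regions by the 10 splits of the controls. Benjamini-Hochberg adjustment covered these 6 tests. As a check of pairing, deviations of promoter peaks from group means correlated across genes between partners with r = 0.61, 0.28 and 0.39 for H3K4me3 in telencephalon cultures 59, 60 and 61, 0.0761 in the brainstem, and -0.0197 to 0.28 for H3K27me3 in the telencephalon and -0.00748 in the brainstem. Consensus peaks followed the study's MSPC rule (stringent and weak p of 1e-10 and 1e-06 for H3K4me3, 1e-08 and 1e-04 for H3K27me3, at least 2 cultures), rewritten here. The interval and test functions were tested on simulated data.

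The members, gene lists and tests were chosen with earlier results of these data known. Genes named by rule were the C-type genes, the first and last gene of each cluster, the genes with the largest mean control promoter coverage of each mark per cluster, and those changed in at least 4 of 5 pairs. The other members named are the items of a count and were named after their values were seen. Alternatives were stricter peaks, equal numbers of peaks, other overlaps and promoters, no matched pairs and cultures left out. Alternatives added after the data were seen were autosomes, the retained share of covered length, the H3K4me3 difference without telencephalon pairs 60 and 61, lists trimmed to the shorter of each pair, and the alternatives for the counts of recurrent gains and of intermediate presence. Sequences of members are not reported here.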

Additional observations from a re-analysis of the deposited data

How the results depend on the processing

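Of 150 alternative values of the main comparisons, 123 were scored as unchanged, and of 312 values for the named genes 274 were. For tested comparisons this meant the same direction and the same side of the significance threshold. The sign-flip and split tests cannot pass that threshold with so few cultures, so there the score meant direction only. It allowed large changes in size, such as H3K27me3 coverage of -2.57 and, with equal numbers of peaks, -0.448. For untested values it meant a close value. The cause was not tested for the others. For H3K27me3, the number of marked members differed between K27M and control by -0.4 with -log10 q of at least 3, -0.4 with fold enrichment of at least 3, -0.4 with the lists of a pair trimmed to the shorter and 0 with equal numbers of peaks. The number with both marks differed by -0.2, -0.4 and 0 with these q and fold settings and equal numbers and by -1.8 with an overlap of at least 500 bp. The H3K27me3 log2 ratio of span to genome was 0.0040 with 10000 bp added. Members that gained H3K4me3 in the telencephalon numbered 5 to 9 with 1 culture left out and 8 with an overlap of at least 500 bp. When every control culture had to hold the peak, 10 members differed in state between regions and 10 had H3K4me3 in the telencephalon, and with cultures 59 and 61 alone the latter was 13.

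The control difference between regions had no stable sign. For H3K27me3 coverage it was -0.164 with -log10 q of at least 3, -0.667 with fold enrichment of at least 3 and -0.339 with equal numbers of peaks, and -0.871 to 1.15 with 1 culture left out. For H3K4me3 coverage it was -1.44 to 0.115 with 1 culture left out. The number of marked members differed by -1.5 to 1.5 for H3K27me3 (0.167 with an overlap of at least 500 bp) and by -6.5 to 2 for H3K4me3.

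Without the replicate block, that is without the matched pairs, the H3K27me3 coverage difference of -2.57 and the log2 ratio of -2.29 each had an exact permutation p of 0.0167, and the H3K4me3 values of 0.753 and 0.10 had p of 0.5 and 0.55. With the culture number as a replicate block, the control differences between regions were 0.211 for H3K27me3 and -1.15 for H3K4me3. With 1 pair left out, K27M minus control was -3.05 to -2.05 for H3K27me3 coverage, 0.343 to 1.501 for H3K4me3 coverage, -5.75 to -4.25 members for H3K27me3 and 8 to 13.75 for H3K4me3. Peak numbers and the caller's threshold limit what could be seen at members, whose H3K27me3 peaks in controls were weak beside those of other marked promoters.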
